A study of Mus musculus with 8 samples.

Results

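The basement membrane is the thin matrix sheet that wraps each heart muscle cell and underlies the endothelium, and integrins are the cell-surface receptors that bind it. The set described here holds 36 mouse genes: chains of type IV collagen and laminin, the linking proteins (nidogens, perlecan and agrin), and the integrin alpha and beta chains that bind matrix. Members were chosen by symbol, taking probe sets annotated to a single gene and, for each gene, the probe set with the highest mean. Of the 36 genes, 35 were measured among 22180 genes in all: 18 basement membrane components (6 type IV collagen chains, 8 laminin chains, 4 linking proteins) and 17 integrin chains (11 alpha, 6 beta). All 35 passed the filter on low values, which 13872 genes passed. Itga10 was not analysed here.

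The samples were left ventricles of female C57BL/6 mice aged 3 to 4 months, profiled on 8 arrays, 2 for each of 4 reproductive states. The states were non-pregnant in diestrus (Diestrus), pregnancy day 12 (Pregnant_Ed12), pregnancy day 19 (Pregnant_Ed19, for which the protocol gives day 18 or 19) and day 1.5 after birth (Postpartum). Pregnant mice were bought as timed pregnancies, no group carried a transgene or received a drug, and RNA came from 1 of several pieces into which each ventricle had been cut. The labels do not say that the arrays are separate animals, so every p-value measures the spread between these samples, which may be technical. Values are log2 expression from robust multi-array averaging (RMA), which makes arrays comparable for 1 probe set but does not rank different genes.

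Type IV collagen forms the covalent network of the sheet, and laminins, trimers of an alpha, a beta and a gamma chain, form the second network, which cells bind. Nidogens, perlecan and agrin join or fill these networks. An integrin is an alpha and beta pair: in adult heart muscle the main laminin receptor is the alpha 7 chain with beta 1, and it ties the sheet to the contractile apparatus beside the dystroglycan complex.

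No gene on the array reached an adjusted p of 0.05 in any of the 5 comparisons of states (limma, Benjamini-Hochberg over 13872 genes), so the share called was 0% and no member was called. The lowest adjusted p among members was 1.00 for day 12 against diestrus, 0.657 for day 19 against diestrus, 0.722 for post-partum against diestrus, 0.675 for day 19 against day 12 and 0.589 for post-partum against day 19. Members are therefore given by their values, by unadjusted p as a scale of size against spread, and by whether the arrays of a pair of states overlap. An exact permutation test on 2 against 2 arrays cannot go below p = 0.333. The direction that stood out in the values was between late pregnancy and the first days after birth: 13 of 18 components were higher on both post-partum arrays than on both day 19 arrays, a share of 72.2% where 19% of all genes tested did so. Among integrin chains 2 of 17 did so, 11.8%. In the opposite direction, 1 of 18 components (Col4a6), 5.56%, was lower on both post-partum arrays. Among integrin chains 4 of 17 were (Itga2, Itgb1, Itgb3 and Itgb4), 23.5%. Over all members the share was 14.3%, where 14.3% of all genes were lower. Col4a6 passed the low-value filter only through its day 19 mean.

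**Figure D1:**
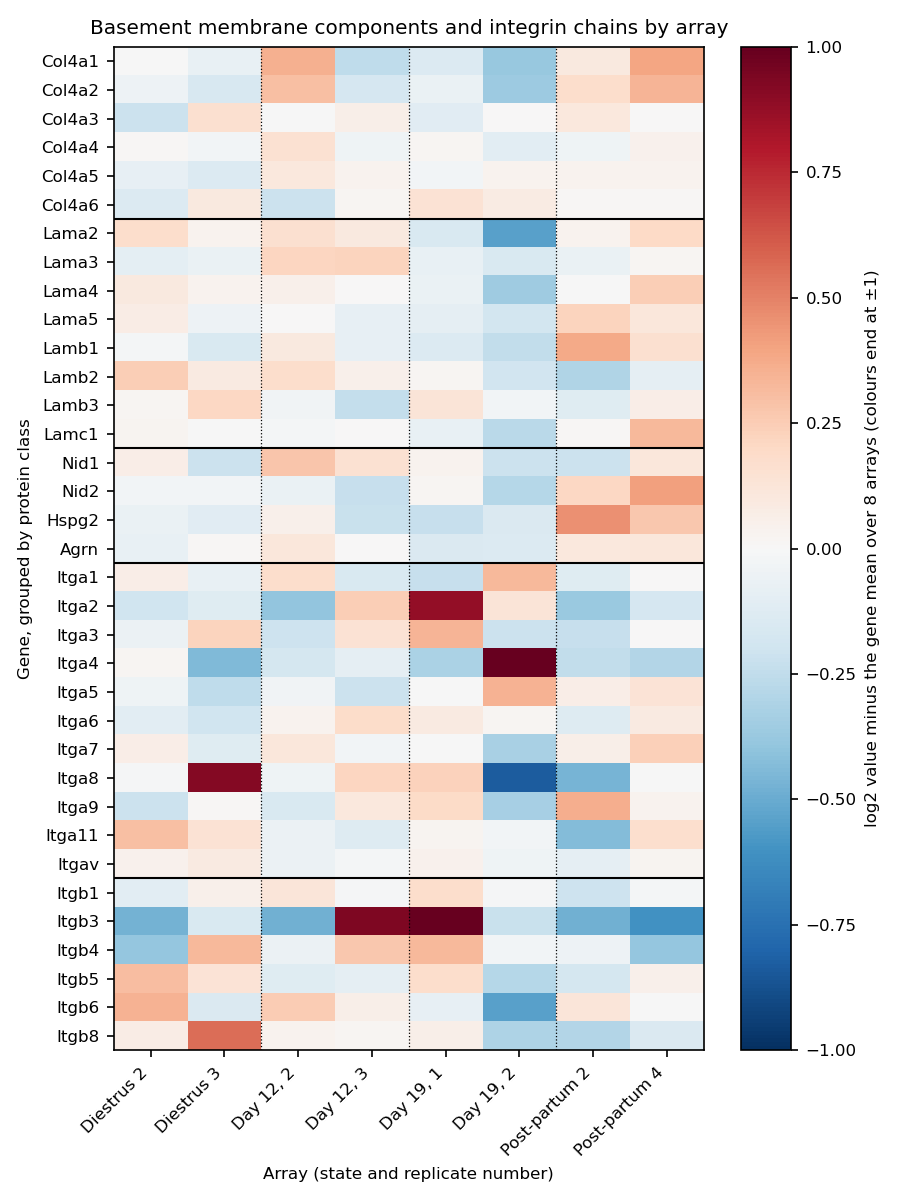
Each row is 1 of the 35 members, grouped as type IV collagens, laminins, linking proteins, integrin alpha and integrin beta chains, and each column is 1 of the 8 arrays; colour is the log2 value minus the gene's mean over the arrays. The component rows are mostly blue on day 19 replicate 2 (mean -0.19) and mostly red on post-partum replicate 4 (mean 0.15), while Itgb3, Itga2, Itga4 and Itga8 each stand out on 1 or 2 arrays.

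Some arrays stood apart. Ventricular muscle markers were high on every array (Myl3 between 11.93 and 12.24) and their list mean stayed within -0.14 to 0.07 of its average, lowest on day 19 replicate 2. Atrial muscle markers, which a ventricle should lack, were high on day 19 replicate 1 (Myl7 11.76), on day 12 replicate 3 (10.04) and on diestrus replicate 3 (8.24), against 4.56 to 5.12 on the other arrays. A platelet list written down after the integrin values were seen (7 of 10 genes measured) averaged 1.58 above its mean on day 19 replicate 1 and 1.08 on day 12 replicate 3, and -0.03 or less elsewhere. On day 19 replicate 2 the macrophage list stood 1.06 above its mean, and the fibroblast, mural and endothelial lists stood at -0.48, -0.34 and -0.28. Each of these is a single array of a pair, so the 2 day 19 arrays differed from each other more than other pairs: the SD of the within-pair difference over members was 0.52 at day 19 against 0.21 post partum, 0.29 in diestrus and 0.34 at day 12. For post partum against day 19, the ventricular muscle, endothelial, mural and fibroblast lists had median differences of 0.14, 0.19, 0.15 and 0.16, where the components had 0.28. The macrophage, mesothelial, platelet and atrial lists went the other way, with medians of -0.43, -0.51, -1.09 and -1.34. Their part in the component values was not tested. In whole tissue, fewer cells of a type and less RNA per cell cannot be told apart.

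**Figure D2:**
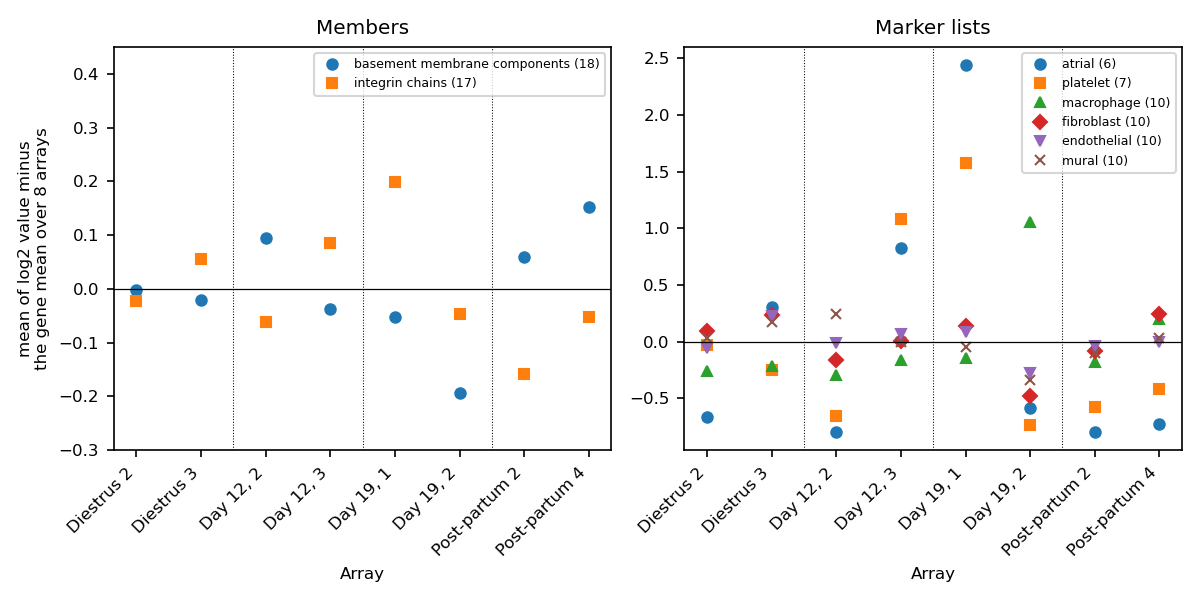
Left, the mean deviation of the 18 components and the 17 integrin chains from each gene's mean on each of the 8 arrays, in log2 units; right, the same for 6 lists of cell type markers (the number of genes measured is in the legend). Components are lowest on day 19 replicate 2 (-0.19) and highest on post-partum replicate 4 (0.15), and the atrial list reaches 2.44 on day 19 replicate 1.

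The main type IV collagen chains, alpha 1 and alpha 2, are co-assembled into one trimer, and their genes lie head to head. The promoter windows of both genes (250 bases before to 50 after the start, RefSeq, build GRCm38.p6) are shown because they share bases: capitals mark the 78 bases that lie in both windows, and the start sites are 21 bases apart. Col4a1 is on the minus strand at chr8:11312777-11313076 and Col4a2 on the plus strand at chr8:11312555-11312854.
Col4a1: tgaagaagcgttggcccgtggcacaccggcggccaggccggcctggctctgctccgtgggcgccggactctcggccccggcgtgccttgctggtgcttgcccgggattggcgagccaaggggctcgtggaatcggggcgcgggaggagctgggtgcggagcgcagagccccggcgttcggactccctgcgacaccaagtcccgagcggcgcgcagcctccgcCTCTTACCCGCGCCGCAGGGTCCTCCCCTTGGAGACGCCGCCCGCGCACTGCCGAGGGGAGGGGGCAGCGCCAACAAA
Col4a2: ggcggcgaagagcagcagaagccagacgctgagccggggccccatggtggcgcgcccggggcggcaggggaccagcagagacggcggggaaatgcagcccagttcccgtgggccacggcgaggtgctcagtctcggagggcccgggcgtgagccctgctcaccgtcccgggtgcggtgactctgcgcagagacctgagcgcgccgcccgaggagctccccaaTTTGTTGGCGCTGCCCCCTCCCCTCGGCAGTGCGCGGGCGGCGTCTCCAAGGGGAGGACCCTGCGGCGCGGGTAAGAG
Over the 8 arrays the pair kept step. Col4a1 read 7.52 and 7.45 in diestrus, 7.88 and 7.27 at day 12, 7.39 and 7.15 at day 19, and 7.62 and 7.92 post partum. Col4a2 read 7.65 and 7.53, 8.0 and 7.53, 7.63 and 7.33, and 7.87 and 8.04 in the same order. In both genes the post-partum arrays lay above the diestrus and the day 19 arrays without overlap, and day 12 replicate 2 was as high as the post-partum arrays while its partner was not. Against day 19, Col4a2 was higher post partum by 0.47 ± 0.19 (SE, log2; 1.39-fold; unadjusted p = 0.0394; limma adjusted p = 0.589), and Col4a1 by 0.50 ± 0.22 (1.42-fold; unadjusted p = 0.0511). Without day 19 replicate 2 the Col4a2 difference was 0.33. The Col4a1 value minus the Col4a2 value stayed between -0.16 and 0.02 of its diestrus mean on all 8 arrays.

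The minor collagen chains gave a smaller range. Col4a5, which forms trimers with Col4a6 or with Col4a3 and Col4a4, lay between 6.31 and 6.38 at day 12, between 6.25 and 6.30 at day 19 and at 6.31 on both post-partum arrays, all above the diestrus arrays at 6.19 and 6.14. Its largest difference from diestrus was 0.18 ± 0.12 at day 12, 1.13-fold. Col4a6 was the one collagen chain lower post partum than at day 19 without overlap, by 0.10 ± 0.14, and its values (4.94 to 5.30) sit around the low-value filter of 5.19. Only its day 19 mean (5.26) passed that filter, so it was tested through the state in which it was highest. Its differences from day 19 are therefore a description only. Col4a3 and Col4a4 lay between 5.21 and 5.74 on all arrays, and the largest difference from day 19 to post partum was 0.11 ± 0.16, for Col4a3. Col4a5 and Col4a6 also lie head to head, with start sites 1343 bases apart. The difference between their values ranged more widely, from -0.14 to 0.41 around its diestrus mean. The diestrus arrays themselves lay at 0.14 and -0.14. Because Col4a6 read around the filter, this pair cannot be set against Col4a1 and Col4a2 on equal terms. All 6 chains were higher post partum than in diestrus in the fitted means, with a median of 0.11 against -0.0037 over all genes tested.

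Perlecan (Hspg2), the large heparan sulfate proteoglycan of the sheet, had the lowest p of any member. It read 9.80 and 9.76 in diestrus, 9.93 and 9.65 at day 12, 9.64 and 9.73 at day 19, and 10.33 and 10.14 post partum. Both post-partum arrays were above all 6 others. The difference was 0.55 ± 0.15 against day 19 (1.46-fold, 95% interval 0.21 to 0.89; unadjusted p = 0.00622, limma adjusted p = 0.589) and 0.46 ± 0.15 against diestrus (1.37-fold; unadjusted p = 0.0153, adjusted p = 0.722). Leaving out any 1 of the 8 arrays kept the difference from day 19 between 0.46 and 0.64. Among members it alone had an unadjusted p under 0.05 in the test over all states together (limma's moderated F-test, adjusted p = 0.726), where 5.81% of genes had one.

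The nidogens, which bridge laminin to collagen, were high in different states. Nid1 read 9.87 and 9.59 in diestrus, 10.08 and 9.95 at day 12, 9.84 and 9.59 at day 19, and 9.59 and 9.91 post partum. Nid2 read 7.01 and 7.01, 6.98 and 6.81, 7.06 and 6.75, and 7.25 and 7.45. Nid1 was highest on the day 12 arrays and Nid2 on the post-partum arrays, in each case with no overlap with diestrus. Nid2 was higher post partum than at day 19 by 0.44 ± 0.16 (1.36-fold; unadjusted p = 0.0224, limma adjusted p = 0.589) and than in diestrus by 0.34 ± 0.16 (unadjusted p = 0.0649); without day 19 replicate 2 the first was 0.29. Nid1 at day 12 was higher than in diestrus by 0.29 ± 0.17 (unadjusted p = 0.137), while a second probe set of Nid1 gave 0.0050. The within-array difference Nid1 minus Nid2 stood at 0.39 and 0.44 above its diestrus mean at day 12 and at -0.37 and -0.25 post partum. Agrin (Agrn), a proteoglycan that binds dystroglycan, was lower on both day 19 arrays (7.14 and 7.14) than on every other array (7.21 to 7.40), a difference of 0.11 ± 0.12 from diestrus and 0.20 ± 0.12 from day 12.

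**Figure D3:**
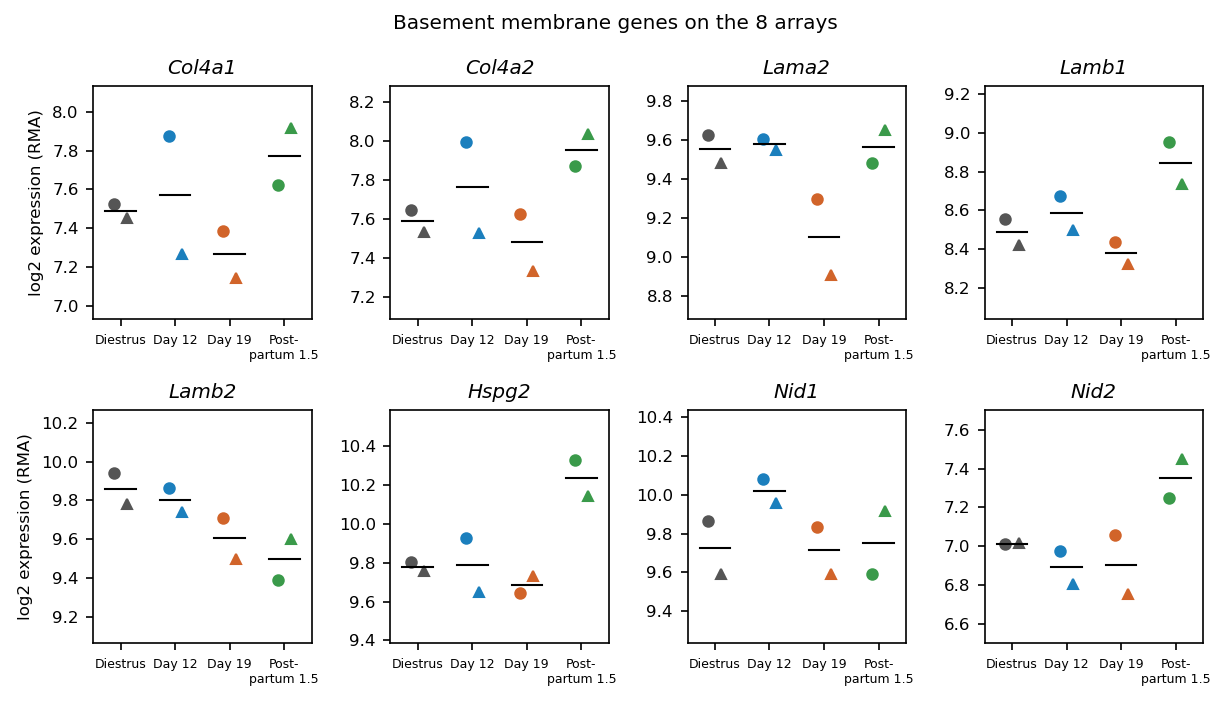
Log2 expression (vertical axes, 1 per gene) of 8 basement membrane genes in the 4 states; circles are the lower-numbered and triangles the higher-numbered replicate of each state, and the bar is the mean of 2 arrays. Hspg2, Lamb1 and Nid2 are highest on both post-partum arrays, Lama2 is lowest on both day 19 arrays, and Lamb2 is lower on both post-partum than on both diestrus arrays.

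All 8 laminin chains were lower at day 19 than in diestrus in the fitted means, median -0.17 against -0.03 over all genes, and 6 of 8 were higher post partum than at day 19, median 0.32 against 0.01. The alpha 2 chain (Lama2), the laminin chain of muscle whose loss causes a muscular dystrophy, read 9.63 and 9.48 in diestrus, 9.61 and 9.55 at day 12, 9.30 and 8.91 at day 19, and 9.48 and 9.65 post partum. Both day 19 arrays were below all 6 others. It was lower at day 19 than in diestrus by 0.45 ± 0.16 (1.37-fold; unadjusted p = 0.0259, limma adjusted p = 0.657) and than at day 12 by 0.48 ± 0.16 (1.39-fold; unadjusted p = 0.0205, adjusted p = 0.675), and post partum it was 0.01 from diestrus. With day 19 replicate 1 left out, the difference from diestrus was -0.65 and that from day 12 was -0.67, and with replicate 2 left out they were -0.26 and -0.28. Replicate 2 is the array with the lowest fibroblast, mural, endothelial and ventricular muscle lists, the last at -0.14, with -0.05 on replicate 1. All 8 ventricular muscle markers were lower at day 19 than in diestrus in the fitted means, median -0.13. The part of these lists in the Lama2 difference was not tested.

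Post partum, the 2 main laminin beta chains differed from diestrus in opposite directions. Their promoter windows (RefSeq, GRCm38.p6, both on the plus strand) are printed for comparison, Lamb1 at chr12:31265043-31265342 and Lamb2 at chr9:108479612-108479911. Capitals mark GC boxes (GGGCGG or its reverse complement CCGCCC): the Lamb1 window has 2 and the Lamb2 window none, and base composition also differs, 63.7% against 44% G or C.
Lamb1: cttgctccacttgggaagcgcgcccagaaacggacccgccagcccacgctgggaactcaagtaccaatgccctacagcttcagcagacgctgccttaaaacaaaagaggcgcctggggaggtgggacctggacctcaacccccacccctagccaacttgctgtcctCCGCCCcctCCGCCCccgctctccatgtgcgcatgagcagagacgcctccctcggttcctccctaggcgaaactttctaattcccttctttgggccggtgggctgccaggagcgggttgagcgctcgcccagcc
Lamb2: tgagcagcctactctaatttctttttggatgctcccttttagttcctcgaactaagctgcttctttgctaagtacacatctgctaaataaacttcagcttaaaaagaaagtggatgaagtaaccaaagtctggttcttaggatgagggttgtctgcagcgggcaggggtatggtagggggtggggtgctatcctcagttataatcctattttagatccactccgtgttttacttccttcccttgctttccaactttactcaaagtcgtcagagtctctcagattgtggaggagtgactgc
Lamb1, the beta chain of early and endothelial laminins, read 8.56 and 8.42 in diestrus, 8.67 and 8.50 at day 12, 8.44 and 8.33 at day 19, and 8.95 and 8.73 post partum. Lamb2, the beta chain of mature muscle and of the neuromuscular junction, read 9.94 and 9.78, 9.86 and 9.74, 9.71 and 9.50, and 9.39 and 9.60. Both post-partum arrays were above all others for Lamb1 and below both diestrus and both day 12 arrays for Lamb2. Lamb1 was higher post partum than in diestrus by 0.35 ± 0.14 (1.28-fold; unadjusted p = 0.0416, limma adjusted p = 0.722) and than at day 19 by 0.46 ± 0.14 (1.38-fold; unadjusted p = 0.0137). Lamb2 was lower post partum than in diestrus by 0.36 ± 0.15 (1.29-fold; unadjusted p = 0.0415, adjusted p = 0.722), and was already lower by 0.26 ± 0.15 at day 19. From day 19 to post partum, Lamb2 differed by only -0.11 ± 0.15, with overlap. Within each array, Lamb1 minus Lamb2 stood 0.94 and 0.50 above its diestrus mean post partum, against 0.10 to 0.20 on the 4 arrays from pregnancy. This pair was chosen for display after its values were seen, so its difference is a description.

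Of the remaining laminin chains, Lama3, a chain of epithelial laminins, was higher at day 12. It read 5.55 and 5.59 in diestrus, 5.87 and 5.87 at day 12, 5.58 and 5.5 at day 19, and 5.59 and 5.68 post partum, so both day 12 arrays were above all 6 others. The difference from diestrus was 0.30 ± 0.12 (1.23-fold; unadjusted p = 0.0408, limma adjusted p = 1.00); Lama3 was the only 1 of 35 members with an unadjusted p under 0.05 in that comparison, 2.86%, where 2.31% of all genes had one. Lamb3, its usual beta partner, went the other way: it read 5.63 and 5.81 in diestrus, 5.57 and 5.36 at day 12, 5.73 and 5.58 at day 19, and 5.49 and 5.67 post partum. Lamb3 was lower at day 12 than in diestrus by 0.25 ± 0.15 (unadjusted p = 0.132). Both genes read within 1 log2 unit of the low-value filter.

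Lama4 and Lama5 are the alpha chains of vascular laminins, and Lamc1 is the gamma chain shared by most laminins. All 3 shared the day 19 low of Lama2 at smaller size. Lama4 lay at 9.10 and 8.81 at day 19 and between 9.15 and 9.40 elsewhere. Lamc1 lay at 9.63 and 9.43 at day 19, between 9.68 and 9.72 in diestrus and at day 12, and at 9.72 and 10.02 post partum. Lama5 lay at 8.13 and 8.01 in diestrus, 8.06 and 7.97 at day 12, 7.96 and 7.87 at day 19, and 8.28 and 8.17 post partum. Unlike Lama2, Lama5 was above diestrus post partum without overlap, by 0.15 ± 0.13, and was below it by 0.15 ± 0.13 at day 19. Lamc1 was above diestrus post partum by 0.16 ± 0.15, with overlap. In all 3 genes both day 19 arrays were below both arrays of each other state. The post-partum minus day 19 differences were 0.33 ± 0.15 for Lama4, 0.34 ± 0.15 for Lamc1 and 0.30 ± 0.13 for Lama5 (unadjusted p = 0.0681, 0.0543 and 0.0477).

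Among integrin alpha chains, Itga7, the muscle laminin receptor, overlapped diestrus in every other state. It read 10.12 and 9.93 in diestrus, 10.16 and 10.02 at day 12, 10.04 and 9.73 at day 19, and 10.11 and 10.29 post partum. Post-partum arrays were above day 19 arrays without overlap, by 0.31 ± 0.16 (1.24-fold; unadjusted p = 0.0895), but overlapped diestrus. Its partner Itgb1, the beta chain of most matrix-binding integrins, read 10.12 and 10.28, 10.34 and 10.22, 10.40 and 10.22, and 10.02 and 10.21. Itgb1 was lower post partum than at day 19 without overlap, by 0.20 ± 0.15 (unadjusted p = 0.212), so the 2 chains of the pair differed in direction. Itga7 minus Itgb1 stood at -0.19 and -0.31 of its diestrus mean at day 19 and at 0.27 and 0.25 post partum, where the diestrus arrays themselves lay at 0.17 and -0.17.

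Other alpha chains that bind laminin or fibronectin showed these values. Itga6, a laminin receptor of endothelium and epithelium, read 8.93 and 8.84 in diestrus, 9.08 and 9.22 at day 12, 9.13 and 9.06 at day 19, and 8.91 and 9.13 post partum. All 4 arrays from pregnancy were above both diestrus arrays, by 0.26 ± 0.14 at day 12 (unadjusted p = 0.0944) and 0.21 ± 0.14 at day 19. Itga5, the fibronectin receptor, read 8.55 and 8.34, 8.56 and 8.38, 8.59 and 8.94, and 8.66 and 8.73. Its day 19 and post-partum arrays were above diestrus and day 12, by 0.32 ± 0.16 at day 19 (unadjusted p = 0.09) and 0.25 ± 0.16 post partum against diestrus. Its highest value was on day 19 replicate 2, the array with high macrophage markers, whose part in it was not tested.

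Itgb3, Itga4, Itga8 and Itga2 had the widest ranges over the 8 arrays of any member, between 1.27 and 2.09. Itga2, a collagen receptor also carried by platelets, read 5.81 and 5.89 in diestrus, 5.62 and 6.25 at day 12, 6.89 and 6.14 at day 19, and 5.64 and 5.84 post partum. Both day 19 arrays were above diestrus and post partum, by 0.67 ± 0.28 (1.59-fold; unadjusted p = 0.047, limma adjusted p = 0.657) and 0.77 ± 0.28 (1.71-fold; unadjusted p = 0.0263, adjusted p = 0.589). Its 2 highest arrays were day 19 replicate 1 and day 12 replicate 3, and without day 19 replicate 1 those differences were 0.29 and 0.40. Itgb3, which pairs with Itga2b on platelets and with Itgav elsewhere, and Itga4, carried by leukocytes, were singled out after their values were seen. Itgb3 read 6.11 and 6.42, 6.09 and 7.51, 8.06 and 6.35, and 6.09 and 5.97. Its high values fell on the same 2 arrays as those of Itga2, on which the platelet genes Itga2b (7.26 and 7.6, against 5.92 to 6.26 elsewhere) and Gp9 (10.03 and 10.65, against 7.23 to 8.29) and the atrial genes were also high. The part of platelet RNA in these values was not tested.

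Itga4 was high on 1 array. It read 6.08 and 5.61 in diestrus, 5.88 and 5.97 at day 12, 5.74 and 7.59 at day 19, and 5.80 and 5.76 post partum. On the same array, day 19 replicate 2, the leukocyte integrins Itgb2, Itgam and Itgal read 9.40, 8.49 and 8.07, against at most 7.17, 6.63 and 6.17 elsewhere, and Vcam1, a ligand of the alpha 4 chain, read 10.39 against at most 8.75. Without day 19 replicate 1, with 1 array left in that state, Itga4 was higher at day 19 than in diestrus by 1.75. In the fit over all arrays its day 19 difference from diestrus was 0.82 ± 0.50 (unadjusted p = 0.144), and without day 19 replicate 2 it was -0.11.

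**Figure D4:**
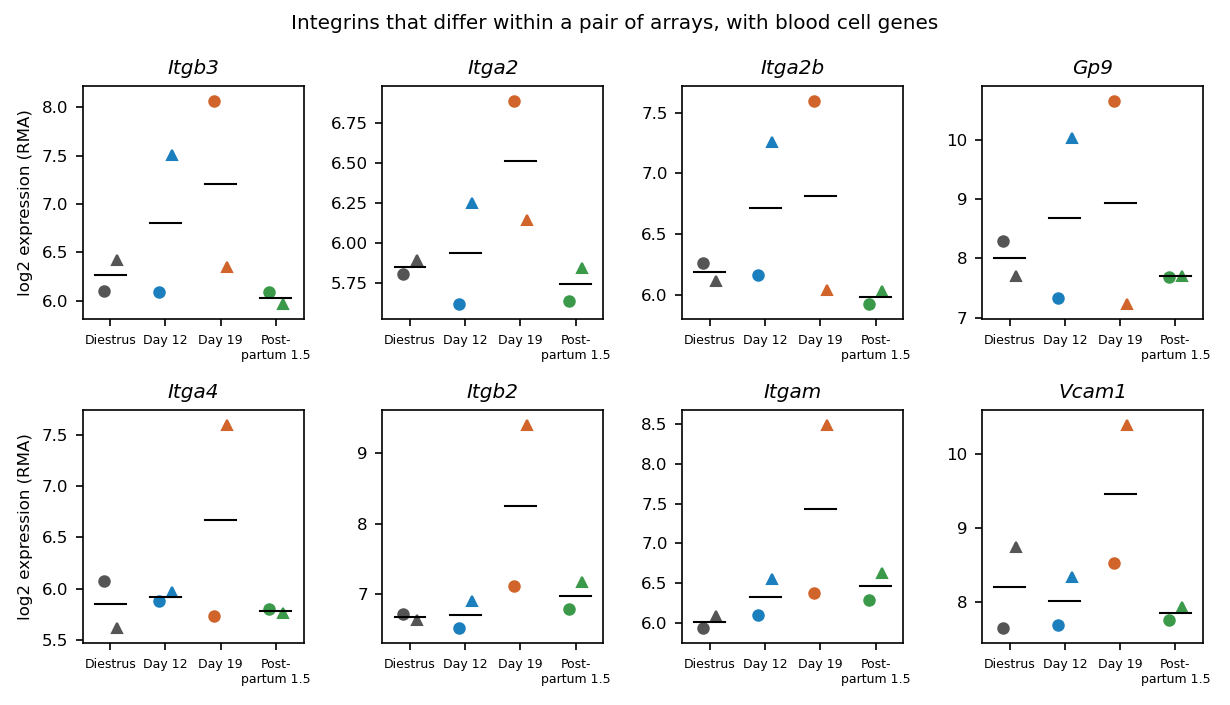
Log2 expression (vertical axes, 1 per gene) of the members Itgb3, Itga2 and Itga4 beside 5 genes of platelets, leukocytes or their ligands in the 4 states; circles and triangles are the lower- and higher-numbered replicates, and the bar is the mean of 2 arrays. Itgb3, Itga2, Itga2b and Gp9 are high on day 12 replicate 3 and day 19 replicate 1, while Itga4, Itgb2, Itgam and Vcam1 are high on day 19 replicate 2.

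The other alpha chains had no unadjusted p under 0.05 in any comparison. Itga1 (collagen and laminin) lay between 8.43 and 8.98, Itga3 (laminin) between 5.92 and 6.49, Itga9 (tenascin and other ligands) between 7.81 and 8.51, Itga11 (fibrillar collagen) between 5.42 and 6.16, and Itgav (RGD ligands) between 8.21 and 8.39. Itga8, a receptor of mesenchymal cells, had the widest diestrus pair, 6.08 and 7.01, and lay between 5.27 and 6.33 on all other arrays. Itgav had the narrowest range of these genes and was lower than in diestrus without overlap at day 12 and post partum, by 0.11 ± 0.12 and 0.10 ± 0.12. A second Itgav probe set read 3.51 to 4.00, below the filter, and gave 0.20 at day 12.

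All 6 beta chains were lower post partum than in diestrus in the fitted means, median -0.21 against -0.0037 over all genes tested. For Itgb1, Itgb4 and Itgb6 the difference was within 1 SE of 0 and changed sign when some 1 array was left out. A probe set shared by Itgb4 and another gene, with low values (4.61 to 5.34), gave 0.42. Itgb8, which with Itgav binds latent TGF-beta, had the smallest p. It read 6.41 and 6.89 in diestrus, 6.37 and 6.36 at day 12, 6.40 and 6.03 at day 19, and 6.04 and 6.19 post partum. Every array from pregnancy or after birth was below both diestrus arrays, with day 19 replicate 1 only just below diestrus replicate 2. It was lower post partum by 0.53 ± 0.20 (1.45-fold; unadjusted p = 0.0285, limma adjusted p = 0.722), and without diestrus replicate 3 by 0.29. Itgb5, another partner of Itgav, read 9.0 and 8.83 in diestrus, 8.58 and 8.61 at day 12, 8.87 and 8.41 at day 19, and 8.52 and 8.75 post partum, lower than diestrus without overlap at day 12 (by 0.33 ± 0.18) and post partum (by 0.28 ± 0.18).

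Itgb6, best known as an epithelial chain that also pairs with Itgav, read 7.95 and 7.46 in diestrus, 7.86 and 7.67 at day 12, 7.52 and 7.07 at day 19, and 7.73 and 7.61 post partum. Its day 19 arrays were below both day 12 arrays, by 0.47 ± 0.22 (unadjusted p = 0.0629), and below both post-partum arrays, by 0.37 ± 0.22. Itgb4, the hemidesmosome chain that pairs with alpha 6, lay between 6.02 and 6.73, with its diestrus pair, 6.03 and 6.73, at nearly the full width of that range. In the fitted means the beta chains did not share one order of states: Itgb6 was lowest at day 19, where Itgb1, Itgb3 and Itgb4 had their highest means. Those 3 exceeded day 12 by only 0.03 ± 0.15, 0.41 ± 0.58 and 0.04 ± 0.26. Without day 19 replicate 1 these differences were -0.06, -0.45 and -0.13.

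Read side by side on each array, ligands and receptors gave different profiles. The 18 components averaged -0.0027 and -0.02 relative to their own means in diestrus, 0.10 and -0.04 at day 12, -0.05 and -0.19 at day 19, and 0.06 and 0.15 post partum. The 17 integrin chains averaged -0.02 and 0.06, -0.06 and 0.09, 0.20 and -0.05, and -0.16 and -0.05. By these averages components were above their mean on both post-partum arrays and integrin chains below theirs. The median over chains gave less: integrins stood at -0.175 on post-partum replicate 2 and 0.0019 on replicate 4. The component medians were 0.03 and 0.11 on the same arrays. The integrin averages include the wide values of Itgb3, Itga4, Itga8 and Itga2. The highest integrin value fell on day 19 replicate 1, the array with the high platelet and atrial lists. For post-partum against day 19 the median component difference was 0.28 with 15 of 18 higher, and the median integrin difference was -0.10 with 4 of 17 higher, against 0.01 and 52.3% higher over all genes tested. Unadjusted p under 0.05 was reached by 7 of 35 members, 20%, against 8.25% of all genes: Col4a2, Lama2, Lama5, Lamb1, Nid2 and Hspg2 higher and Itga2 lower. Without day 19 replicate 2 that count was 4, where 7.46% of all genes passed, 13 of 18 components were higher and their median was 0.21. Without post-partum replicate 4 the count was 3, where 14.2% of all genes passed, and the median was 0.19. Without day 19 replicate 1 the count was 12, where 24.4% of all genes passed, and 8 of 17 integrin chains were higher with a median of -0.04. Without post-partum replicate 2 the integrin median was -0.02, also with 8 of 17 higher.

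**Figure D5:**
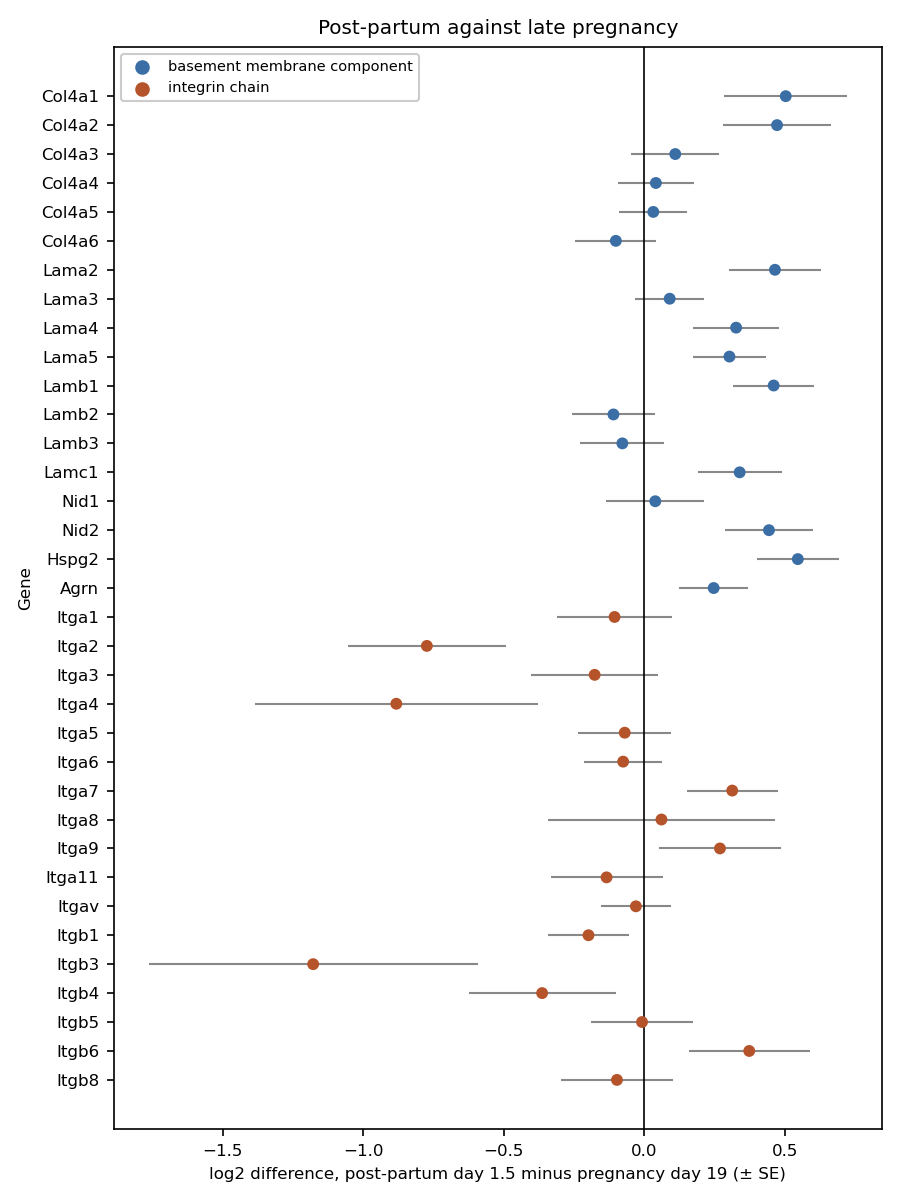
Log2 difference of post-partum day 1.5 minus pregnancy day 19 for the 35 members (points, with ± 1 SE from the limma fit over 8 arrays); blue points are basement membrane components and orange points integrin chains. Of the components 15 of 18 lie right of 0, up to 0.55 for Hspg2, and of the integrin chains 13 of 17 lie left of 0, down to -1.18 for Itgb3.

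Set against diestrus, the states differed in direction. At day 12, 11 of 18 components and 11 of 17 integrin chains were higher, with medians of 0.04 and 0.06 against 0.02 for all genes, of which 55.1% were higher. Of the 35 members, 4 were higher than in diestrus without overlap and 6 lower, 11.4% and 17.1% where 21.7% and 15.6% of all genes were. Without day 12 replicate 2, 7 of 18 components were higher with a median of -0.02 and the integrin median was -0.0030; without day 12 replicate 3 the medians were 0.10 and -0.05, and without diestrus replicate 3 the integrin median was -0.03. At day 19, 2 of 18 components (Col4a5 and Col4a6) and 9 of 17 integrin chains were higher, with medians of -0.11 and 0.03 against -0.03 for all genes, of which 44.5% were higher, and 8 of 18 components lay below diestrus without overlap, 44.4% where 20.4% of all genes did. Col4a6 passed the low-value filter only through its day 19 mean. Without day 19 replicate 2, 8 of 18 components were higher and their median was -0.07. The integrin median was -0.11 without day 19 replicate 1, -0.09 without diestrus replicate 2 and 0.12 without diestrus replicate 3. Lama2 and Itga2 were the members with an unadjusted p under 0.05 there, 5.71% against 7.29% of all genes; without day 19 replicate 1 the count was 8, where 26.9% of all genes passed, and without either post-partum array 1, where 6.95% did. Post partum, 16 of 18 components and 4 of 17 integrin chains were higher, with medians of 0.11 and -0.10 against -0.0037 for all genes, of which 49.4% were higher, and 8 of 18 components lay above diestrus without overlap, 44.4% against 21.1%. Lamb1, Lamb2, Hspg2 and Itgb8 had an unadjusted p under 0.05 there, 11.4% of members against 6.62% of all genes; the count was 0 without diestrus replicate 3 (4.28% of all genes) or without post-partum replicate 2 (3.2%), and 2 without day 12 replicate 2 (4.17%) or replicate 3 (4.19%). The integrin median post partum ranged from -0.15 to -0.05 when 1 array was left out. From day 12 to day 19, 15 of 18 components were lower, leaving 16.7% higher where 42.8% of all genes were, and 10 of 18 were lower without overlap, 55.6% against 23.2%, while Lama2 and Lama3 had an unadjusted p under 0.05, 5.71% of members against 6.47% of all genes. Without day 12 replicate 2 the component median for that step was -0.08 in place of -0.18, and no member had such a p, where 2.11% of all genes did. Without day 19 replicate 1 the count was 7, where 27.8% of all genes did, and without day 19 replicate 2 the component median was -0.11. The comparisons share arrays, so they are not separate evidence.

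Promoter windows were available for 27 of the 36 members, 31 windows of 300 bases. A GC box (GGGCGG on either strand) was present in 19 of the 31, 61.3%, against 35.7% of 32851 windows of all genes; a CCAAT box (CCAAT or ATTGG) in 7, 22.6% against 37.4%; and the letters TATAAA or TTTATA in 0, against 13.6%. The median G and C content was 60.7% in member windows and 52.7% in all windows. These are matches of letters in a short window.

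Other basement membrane genes outside the set (26 of 32 measured, 23 above the filter) had a post-partum minus day 19 median of 0.19. Of the 23, 15 were higher, where 52.3% of all genes were, and none was called. Unadjusted limma p under 0.05 was reached by 7 higher and 2 lower genes, where 8.25% of all genes reached it. Col15a1, Sparc and Serpinh1, given next, were all higher. Col15a1, a vascular basement membrane collagen, read 7.80 and 7.68 in diestrus, 7.75 and 7.6 at day 12, 7.42 and 6.19 at day 19, and 7.91 and 8.12 post partum, so day 19 replicate 2 set most of its late-pregnancy mean. Sparc, which binds collagen IV, read 10.41 and 10.68 post partum, above the other 6 arrays at 9.99 to 10.22. Serpinh1, the collagen chaperone of the endoplasmic reticulum, read 8.91 and 8.92 in diestrus, between 9.12 and 9.20 on the 4 pregnancy arrays, and 9.34 and 9.33 post partum. Dystroglycan (Dag1), the laminin receptor that is not an integrin, lay between 10.87 and 11.20 over the 8 arrays.

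The proteins that link integrins to the cytoskeleton (30 of 34 measured, 29 above the filter) had 18 of 29 higher at day 19 than in diestrus and 22 of 29 higher post partum, with medians of 0.05 and 0.12, where 44.5% and 49.4% of all genes were higher. From day 19 to post partum 14 of 29 were higher, median -0.02, and none was called in any comparison. Talin 1 (Tln1), which activates integrins, read 9.24 and 9.21 in diestrus, 9.21 and 9.14 at day 12, 9.46 and 9.70 at day 19, and 9.44 and 9.38 post partum. Zyxin (Zyx) read 8.4 and 8.61, 8.32 and 8.44, 8.85 and 9.09, and 8.96 and 8.68. In both genes the day 19 and post-partum arrays were above all arrays of diestrus and day 12. The highest value of each gene was on day 19 replicate 2, the array with high macrophage markers, whose part in it was not tested. Filamin C (Flnc), the muscle filamin, was higher post partum than in diestrus by 0.72 (unadjusted p = 0.0042, limma adjusted p = 0.722), with 10.44 and 10.09 against 9.68 and 9.42.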

How the data were processed

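RNA of 8 left ventricle samples (100 ng each, 2 per state) was labelled with biotin and hybridised to Affymetrix arrays, per the labels' protocols. The deposited log2 expression values, 1 per probe set and array (1.37 to 13.32), came from RMA; the submitters' processing notes name Affymetrix Expression Console as the authors' software. Its version is not given in the sources used here, nor are scan dates or a build. Arrays have no read depth, so their number limits precision: the median SE of a difference was 0.16 for members.

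Of 34365 probe sets, 23521 had 1 gene symbol, 1814 several and 9030 none here; 23328 matched current RefSeq gene identifiers, with 0 symbols changed. Each gene took its probe set of highest mean. Genes with at least 1 group mean at or above the median of all values (5.19) were tested with limma 3.58.1 in R 4.3.3: lmFit over all 8 arrays with a mean per state, eBayes (4 residual and 3.68 prior degrees of freedom), 5 contrasts and a moderated F-test, with Benjamini-Hochberg adjustment over 13872 genes and a threshold of 0.05. Intervals are 95%. The fit was tested on simulated data. Motif counts used python 3.11.15 on RefSeq promoter windows.

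Members and gene lists were chosen with earlier results of these data known. All members are accounted for; array values are printed for the 4 lowest p per contrast, the 10 lowest F-test p, and Itgb1, Itga7, Lama2, Col4a1, Col4a2, Nid1 and Hspg2. Lists not described elsewhere gave no called gene. Alternatives were array weights, trended and robust variance, no or a stricter filter, median centring, only the groups compared, a replicate block and leaving out each array.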

Additional observations from a re-analysis of the deposited data

How the results depend on the processing

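The 4 member differences of lowest p in each of the 5 comparisons kept their direction under every alternative run. They were picked by p in these same data, and except for Itga2 at day 19 against day 12 their groups did not overlap. Leaving out 1 array cannot reverse a difference without overlap, so this says little about how stable they are. Over all 175 member differences, 71 changed sign when some 1 array was left out. With all 8 arrays no member was called under any setting. The median component difference between post partum and day 19 (0.28) was 0.39 under the stricter filter (6.86), which left 12 components, and 0.19 to 0.30 when 1 array was left out; for day 19 against day 12 the range was -0.25 to -0.084. The integrin median ranged from -0.054 to 0.056 for day 12 against diestrus, -0.11 to 0.12 for day 19 against diestrus and -0.13 to 0.12 for day 19 against day 12. With 1 array left out, genes called ranged from 0 to 2 for day 12, 0 to 1311 for day 19 and 0 to 3 for post partum against diestrus, 0 to 1374 for day 19 against day 12, 0 to 929 for post partum against day 19 and 0 to 702 for the F-test; the highest counts for day 19 came without its replicate 1. Members called were then 0 to 2, 0 to 2 and 0 to 1 in the comparisons with day 19. Genes called for post partum against day 19 were 1 under trended and robust variance and 1 under the stricter filter; for day 12 against diestrus, 1 under array weights and 29 with a replicate block. Members with unadjusted p under 0.05 for day 12 against diestrus were 3 under array weights, 3 with only the 2 groups, 4 with the replicate block, and 0 under trended and robust variance, no filter, the stricter filter and median centring. For day 19 against diestrus they were 1 under array weights, 1 under the stricter filter and 0 with only the 2 groups; for day 19 against day 12, 1 under the stricter filter and 1 with only the 2 groups; for post partum against day 19, 3 under array weights and 4 with only the 2 groups. Leaving out 1 array they ranged 0 to 2, 1 to 8, 0 to 5, 0 to 7 and 3 to 12 in the order of the counts of genes called. The causes were not tested. Replicate numbers do not pair the samples: diestrus and day 12 share numbers 2 and 3, the deviations of the pair correlated at r = 0.22 over 13872 genes, and nothing in the labels ties them. With 2 arrays a state precision is low: a difference of 0.31 ± 0.16 (Itga7, post partum against day 19) had an unadjusted p of 0.0895.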

Other observations

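Integrin ligands outside the basement membrane (13 of 14 measured, 12 above the filter) held the widest post-partum values of the lists examined. Tenascin C (Tnc), a matricellular ligand of integrins with alpha 9 or alpha v chains, read 5.56 and 5.29 in diestrus, 5.57 and 5.21 at day 12, 5.78 and 6.06 at day 19, and 7.13 and 7.75 post partum. Its post-partum minus diestrus difference was 2.01 (unadjusted p = 3.9e-05, limma adjusted p = 0.445). Periostin (Postn), another integrin alpha v ligand, read 10.32 and 10.38 post partum, above the other 6 arrays at 7.84 to 9.84, and its diestrus pair differed by more than 1 log2 unit (8.63 and 9.84). Col1a1 read 8.65 and 8.82 post partum against 7.93 to 8.44 elsewhere. None of the 12 genes was called, and 10 of 12 were higher post partum than in diestrus, with a median of 0.24.

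Thbs1, the thrombospondin stored in platelets, was highest on day 19 replicate 1 (9.27) and day 12 replicate 3 (8.38), the arrays on which Itgb3 was highest, and read 5.97 to 7.83 on the others. Fermt3, the integrin activator of blood cells, read 6.37 and 6.80 at day 19 against 5.36 and 5.72 in diestrus, a difference of 1.04 (limma adjusted p = 0.639).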
